A study of Mus musculus with 6 samples.

Results

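The 34 genes described here encode the proteins that carry the signal of TrkB, the receptor of brain-derived neurotrophic factor, from the membrane to the cytoplasm and the nucleus. They were chosen by name as the adaptors and the RAS-MAPK, PI3K-AKT-mTOR, phospholipase C gamma and CREB arms of the pathway. Each name matched 1 row of the deposited table of 33385 genes, and each passed the filter on low counts. The table comes from RNA sequencing of hippocampus from mice that carry the floxed Bcas2F/F allele. The Cre group (n = 3) had received AAV2/9-Syn-cre, an adeno-associated virus that expresses the Cre recombinase from the synapsin promoter, and the vehicle group (n = 3) had received AAV-vehicle. Both groups carry the floxed allele, although the genotype label calls the first Bcas2 knockdown and the second WT. The labels give no age, sex, dose or interval after injection and do not say whether a library is 1 animal. The synapsin promoter is active in neurons, which limits expression of Cre largely to them. The series title names neurogenesis, Alzheimer's disease and BDNF/TrkB signaling, so the question addressed is whether the transcripts of this signalling chain differ between the groups.

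When its ligand binds, TrkB phosphorylates itself, and adaptor proteins dock on the phosphorylated receptor. From there the signal runs through the small GTPase RAS to the MAP kinases, through phosphoinositide 3-kinase to AKT and mTOR, and through phospholipase C gamma to calcium, the calmodulin kinases and the transcription factor CREB. In hippocampal neurons these arms are known for their part in survival, dendrite growth, local translation and long-term potentiation. They act mainly through phosphorylation, which RNA sequencing does not measure, and the same proteins serve many other receptors.

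The libraries held 55914768 to 76481458 deposited counts. Bcas2 itself was at 9.08, 9.17 and 8.87 FPKM (sequenced fragments scaled by gene length and library depth) in the Cre libraries, against 9.87, 9.71 and 9.44 FPKM in the vehicle libraries. Markers of hippocampal neurons (7 genes), neurons in general (9 genes) and glia were present in every library. A few libraries stood apart. Choroid plexus markers (8 genes) summed to 4865 FPKM in vehicle replicate 3 and to 24.9 to 52.9 FPKM in the other libraries. Striatal markers (5 genes) summed to 94.5 FPKM in Cre replicate 1 and to 20.4 to 36.0 FPKM elsewhere. Counts of the Y-linked gene Ddx3y were present only in vehicle replicates 2 and 3 (3192 and 3529), and were 0 in the other 4 libraries. The X-linked gene Xist was at 43.9 to 58.6 FPKM in those 4 libraries. In vehicle replicates 2 and 3 Xist was at 0.00137 and 0.0213 FPKM, so sex-linked transcripts were not balanced between the groups. The 8 oligodendrocyte markers summed to 605 to 625 FPKM in the Cre libraries and to 744 to 1168 FPKM in the vehicle libraries. In tissue RNA, fewer cells of a type and less RNA per cell cannot be told apart.

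All 34 genes were expressed, with counts between 542 and 31747 in every library. Their mean level over the 6 libraries ran from 88.2 FPKM for Map2k1, which encodes the MAP kinase kinase MEK1, down to 2.31 FPKM for Shc1, the widely expressed adaptor of the SHC family. Map2k1 and Mapk3, which encodes the MAP kinase ERK1, were the most abundant members, and their ranges over the libraries did not touch (82.4 to 94.5 FPKM against 57.6 to 69.0 FPKM). Below Mapk3 came Grb2, Kidins220, Pik3r2 and Akt1, with mean levels of 39.2, 39.1, 38.9 and 34.4 FPKM. The order of Grb2, Kidins220 and Pik3r2 was not settled, since Grb2 was above Kidins220 in 3 of the 6 libraries and Kidins220 above Pik3r2 in 4. Crtc1, Ptpn11, Sh2b1 and Hras followed at 23.7, 22.4, 19.3 and 15.2 FPKM, in this order in all 6 libraries for Crtc1 over Ptpn11, Ptpn11 over Sh2b1 and Sh2b1 over Hras. From Shc2 (12.5 FPKM) down to Frs2 (8.08 FPKM) the ranges of neighbouring genes overlapped, and so they did from Frs3 (6.25 FPKM) to Shc1. The 34 genes together took 0.336% to 0.346% of the counts in the Cre libraries and 0.336% to 0.350% in the vehicle libraries.

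**Figure D1:**
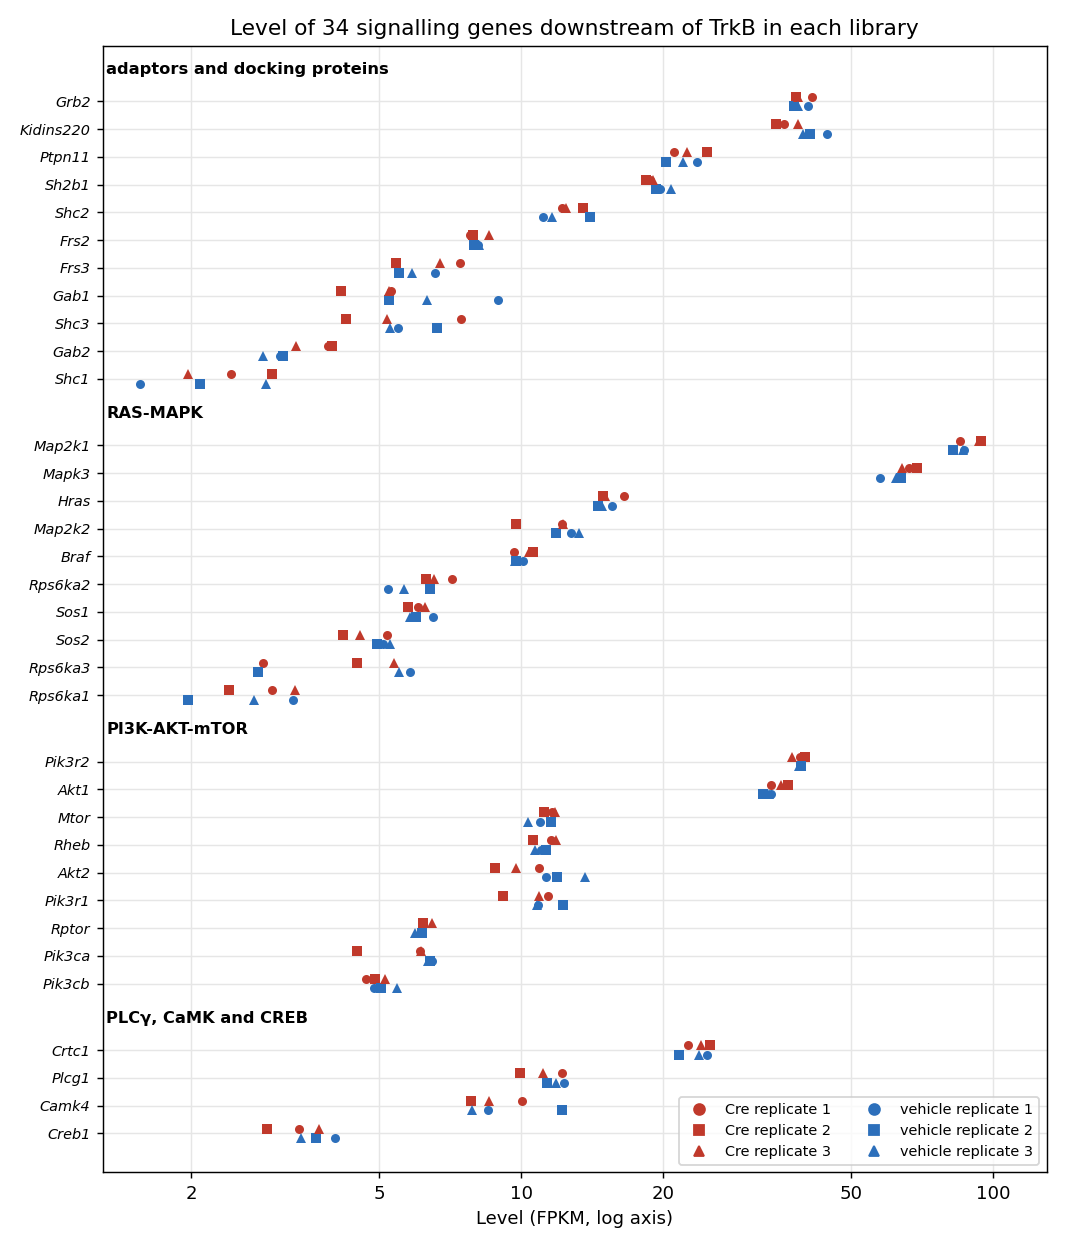
Level of each of the 34 genes in each library, in FPKM on a log axis, grouped by arm and ordered within an arm by the mean over libraries, with Cre libraries as red symbols above the blue symbols of the vehicle libraries. Map2k1 and Mapk3 lie apart at the high end, and for most genes the symbols of both groups intermix.

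No member passed the test between groups. In edgeR's quasi-likelihood test on the counts, 0 of the 34 genes had a Benjamini-Hochberg adjusted p under 0.05, where the percentage over all 20946 tested genes was 0%; the smallest adjusted p among the members was 0.792. DESeq2 also called 0 of the 34, against 0.353% of all tested genes; at an unadjusted DESeq2 p under 0.05 there were 5 members, against 7.18% of all genes. At an unadjusted edgeR p under 0.05 there were 3 members (6.19% of all genes), namely Gab2 and Rps6ka2, which were higher after Cre (3.03% of all genes), and Akt2, which was lower (3.16%). The log2 fold change, Cre over vehicle, was above 0 for 20 members and below 0 for 14, against 49.9% above 0 among all genes, and its median was 0.03 over the members and 0.00 over all genes tested. It ran from -0.46 (Gab1) to 0.33 (Gab2), so no member differed by more than 1.5-fold, as 14% of all genes did.

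The intervals were narrow for most of the genes. The 95% interval of the fold change lay within 1.5-fold either way for 30 of the 34, against 46.9% of all tested genes and 86.6% of the genes at least as abundant as the least abundant member. The exceptions were Gab1, Shc1, Rps6ka1 and Rps6ka3. The median standard error was 0.09 on the log2 scale for the members and 0.19 for all genes. The groups did not overlap for 7 members, 3 higher and 4 lower after Cre, where 13% of all genes had groups that did not overlap (5.47% higher and 7.5% lower). That count was 13 without Cre replicate 1, 11 without Cre replicate 2 and 14 without vehicle replicate 2, and the share of all genes was then 25.5%, 21.5% and 27.5%, because fewer libraries overlap less often. Without Cre replicate 3 it was 9 (21.7% of all genes), without vehicle replicate 1 it was 8 (21.6%) and without vehicle replicate 3 it was 7 (21.4%). The count at an unadjusted p under 0.05 was 1 without Cre replicate 2 (Rps6ka2; 4.49% of all genes), 1 without Cre replicate 3 (Gab2; 4.72%) and 1 without vehicle replicate 3 (Kidins220; 4.26%). It was 2 without Cre replicate 1 (Akt2 and Sos2; 6.59%) and 2 without vehicle replicate 1 (Akt2 and Gab2; 4.74%). Without vehicle replicate 2 it was 5, where the share of all genes was 8.64%, and without both Cre replicate 1 and vehicle replicate 3 it was 1 (Akt2; 4.98%).

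**Figure D2:**
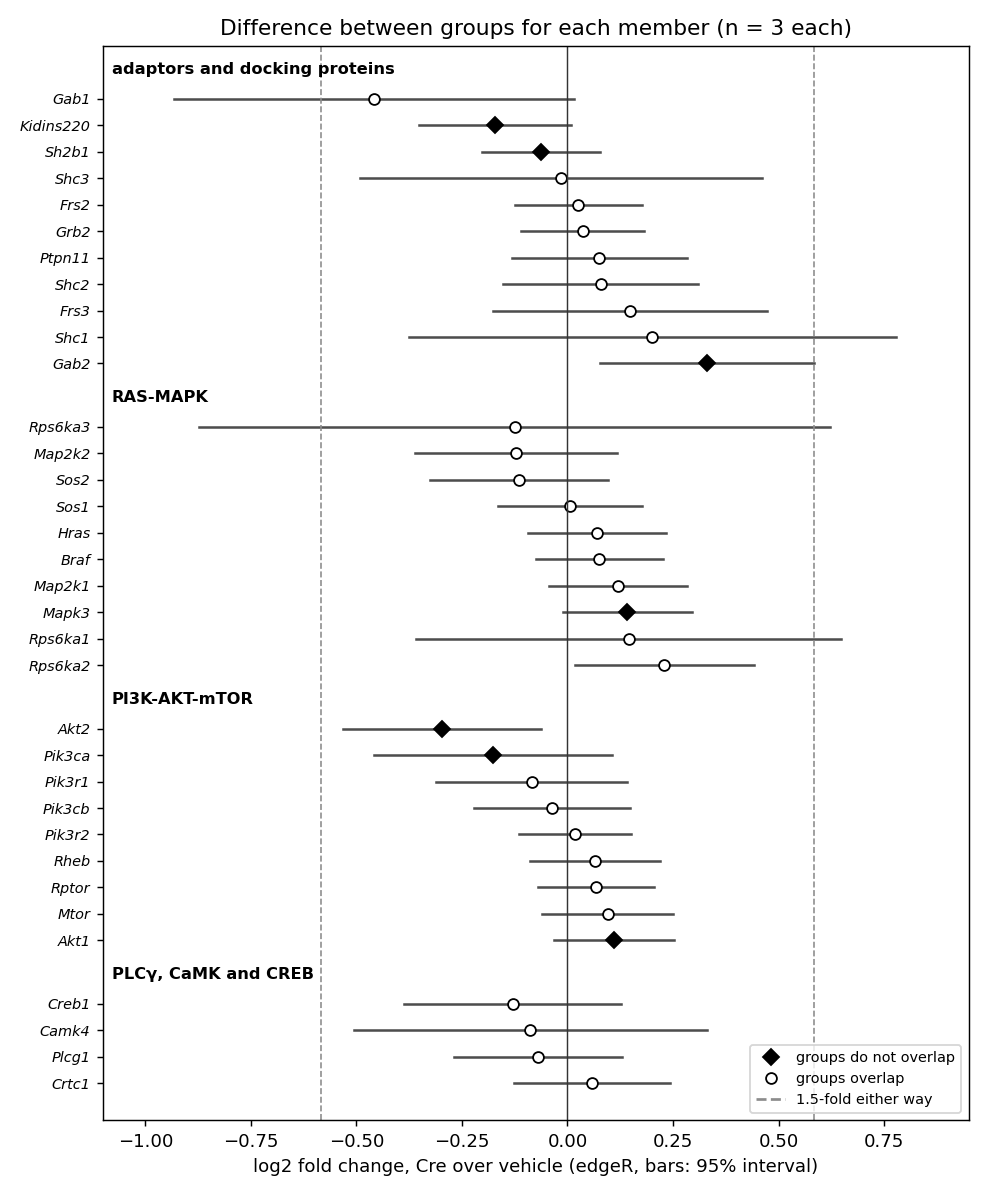
The log2 fold change, Cre over vehicle, of each member from edgeR, with its 95% interval as a bar, grouped by arm, and dashed lines at 1.5-fold either way. Black diamonds mark the 7 members whose groups do not overlap, and the bars of Gab1, Shc1, Rps6ka1 and Rps6ka3 alone cross a dashed line.

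Among the adaptors, the docking proteins Gab1 and Gab2 gave the lowest and the highest log2 fold change of all members. GAB proteins bind GRB2 and, once phosphorylated, recruit phosphoinositide 3-kinase and the phosphatase SHP2. Gab2 (ENSMUSG00000004508, chromosome 7 from 96730793 to 96958153, plus strand, GRCm39) was at 3.89, 3.97 and 3.33 FPKM in the Cre libraries, against 3.08, 3.12 and 2.83 FPKM in the vehicle libraries. Every Cre library lay above every vehicle library. In edgeR its log2 fold change was 0.33 (SE 0.108, 95% interval 0.08 to 0.58), with an unadjusted edgeR p of 0.0172 and an adjusted p of 0.792, while permuting the libraries gave an exact two-sided p of 0.10, below which a design with 3 libraries a group cannot go.

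Gab1 (ENSMUSG00000031714, chromosome 8 from 81491063 to 81607148, minus strand) was at 5.30, 4.14 and 5.24 FPKM in the Cre libraries, against 8.93, 5.24 and 6.32 FPKM in the vehicle libraries. Vehicle replicate 1 was the highest, and vehicle replicate 2 lay level with Cre replicates 1 and 3. Gab1 had a log2 fold change of -0.46 (SE 0.202, 95% interval -0.93 to 0.02, adjusted p = 0.792 in edgeR; exact permutation p = 0.30). It was -0.21 without vehicle replicate 1. That library also held the highest sum of oligodendrocyte markers, 1168 FPKM. All 8 oligodendrocyte markers lay below 0 in log2 fold change (median -0.60), and with their mean level as a covariate Gab1 was at 0.15. That mean level did not overlap between the groups. Its effect, here and below, can hardly be told apart from that of the group. With a term for Y-linked counts Gab1 was at -0.85. Those counts were present only in vehicle replicates 2 and 3. Here and below, the term therefore compares the Cre libraries with vehicle replicate 1 alone. The part of cell content in the difference of Gab1 was not tested.

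The share of Gab1 in the summed FPKM of both GAB genes does not depend on how libraries are scaled. It was 57.7%, 51.1% and 61.2% in the Cre libraries, against 74.3%, 62.6% and 69.1% in the vehicle libraries. These groups did not overlap, with a mean of 56.7% ± 5.15 against 68.7% ± 5.86 (SD, n = 3 each), and the exact permutation p was 0.10, or 0.45 when adjusted over the 9 paralog families compared.

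Kidins220, a transmembrane scaffold that TrkB phosphorylates and that helps sustain MAP kinase signalling, was at 36.0, 34.7 and 38.6 FPKM in the Cre libraries, against 44.6, 41.0 and 39.5 FPKM in the vehicle libraries. The groups did not overlap, and the gap between Cre replicate 3 and vehicle replicate 3 was small. Its log2 fold change was -0.17 (SE 0.0770, adjusted p = 0.792 in edgeR; exact permutation p = 0.10), and 0.01 with the oligodendrocyte covariate. Sh2b1, an adaptor that enhances Trk activation, was at 18.8, 18.4 and 19.1 FPKM in the Cre libraries, against 19.7, 19.3 and 20.8 FPKM in the vehicle libraries. The groups of Sh2b1 did not overlap either, with an edgeR value of -0.06 on the log2 scale (SE 0.0597; edgeR adjusted p = 0.870; exact permutation p = 0.10), which was -0.03 without vehicle replicate 3.

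The central adaptors lay close together in both groups. Grb2, which links the docked adaptors to the RAS activator SOS, was at 41.3, 38.3 and 38.7 FPKM in the Cre libraries, against 40.6, 37.9 and 38.7 FPKM in the vehicle libraries, a log2 fold change of 0.04 (95% interval -0.11 to 0.18, adjusted p = 0.930 in edgeR). Frs2, the docking protein that shares its site on TrkB with SHC proteins, averaged 8.08 ± 0.406 FPKM after Cre and 8.07 ± 0.114 FPKM in the vehicle group (SD, n = 3 each). Ptpn11, which encodes SHP2, averaged 22.8 ± 1.84 FPKM and 22.0 ± 1.64 FPKM in Cre and vehicle libraries. Frs3, the relative of Frs2, averaged 6.52 ± 0.998 FPKM after Cre and 5.98 ± 0.531 FPKM in the vehicle group, and it overlaps 4 other genes of the table, among them Gm21981 on the opposite strand at 8.54 FPKM after Cre and 8.58 FPKM in the vehicle group, so its level is uncertain where the strand setting of the counting is not known.

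Of the SHC adaptors, which connect receptors to GRB2, Shc2 was the most abundant in every library. Shc2 made up 55.2% to 65.2% of the summed FPKM of the 3 genes over the 6 libraries, Shc3 20.5% to 33.8% and Shc1 8.57% to 14.5%. Shc2 and Shc3 are the family members known from neurons. Shc1 was at 2.42, 2.96 and 1.96 FPKM in the Cre libraries, against 1.56, 2.08 and 2.87 FPKM in the vehicle libraries, so the groups overlapped throughout. Its log2 fold change was 0.20 (95% interval -0.38 to 0.78), which leaves room for 77.1% to 172% of the vehicle level, and it was -0.55 with the oligodendrocyte covariate. Shc3 averaged 5.64 ± 1.66 FPKM after Cre and 5.79 ± 0.729 FPKM in the vehicle group, with the highest value in Cre replicate 1 (7.48 FPKM) and the lowest in Cre replicate 2 (4.25 FPKM).

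In the RAS-MAPK arm, 7 of the 10 members had a positive log2 fold change, with a median of 0.07, and none passed the adjusted threshold. With a term for Y-linked counts, where vehicle replicate 1 alone stood against the Cre libraries, the median was -0.04. Mapk3, the gene of ERK1, was at 66.5, 69.0 and 64.1 FPKM in the Cre libraries, against 57.6, 63.95 and 62.3 FPKM in the vehicle libraries. The groups did not overlap by a narrow margin, and the log2 fold change was 0.14 (SE 0.0651, 95% interval -0.01 to 0.29, adjusted p = 0.792 in edgeR; exact permutation p = 0.10). With the oligodendrocyte covariate it was 0.02. Map2k1 was at 85.1, 94.5 and 93.6 FPKM in the Cre libraries, against 86.8, 82.4 and 86.5 FPKM in the vehicle libraries. Cre replicate 1 lay among the vehicle libraries, and the log2 fold change was 0.12 (SE 0.0699, adjusted p = 0.816 in edgeR; exact permutation p = 0.30). Its paralog Map2k2, the gene of MEK2, averaged 11.4 ± 1.45 FPKM after Cre and 12.6 ± 0.738 FPKM in the vehicle group. Map2k1 thus made up 86.7% to 90.7% of the summed FPKM of the pair over all libraries.

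The upstream members of this arm differed little. Hras, a RAS GTPase, averaged 15.5 ± 0.925 FPKM after Cre and 15.0 ± 0.514 FPKM in the vehicle group, and Braf, the RAF kinase that RAS activates, 10.2 ± 0.504 FPKM and 9.85 ± 0.207 FPKM. The exchange factors that load RAS with GTP were present at similar levels, with Sos1 at 6.03 ± 0.259 FPKM after Cre and 6.10 ± 0.358 FPKM in the vehicle group, and Sos2 at 4.65 ± 0.511 FPKM and 5.11 ± 0.162 FPKM. Each of these 4 genes had an interval within 1.5-fold.

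The RSK kinases are activated by ERK and can phosphorylate CREB. Rps6ka2 (RSK3) was at 7.14, 6.27 and 6.52 FPKM in the Cre libraries, against 5.23, 6.41 and 5.64 FPKM in the vehicle libraries. Only vehicle replicate 2 lay within the Cre range, and the log2 fold change was 0.23 (SE 0.0905, unadjusted edgeR p = 0.0376, adjusted p = 0.792; exact permutation p = 0.20). It was 0.13 with the oligodendrocyte covariate and 0.36 with a term for Y-linked counts. Rps6ka3 (RSK2), an X-linked gene described here because its spread was seen to be the widest, was at 2.84, 4.49 and 5.37 FPKM in the Cre libraries, against 5.80, 2.77 and 5.50 FPKM in the vehicle libraries. Cre replicate 1 and vehicle replicate 2 were low together, at about the same level, while the other 4 libraries were at 4.49 to 5.80 FPKM. Y-linked counts were 0 in Cre replicate 1 and present in vehicle replicate 2, and their part in the level of Rps6ka3 was not tested. The within-group SD of Rps6ka3 was 0.54 on the log2 FPKM scale, where the median over the members was 0.11. Its log2 fold change was -0.13 (95% interval -0.87 to 0.62), so a change of 1.5-fold in either direction was not excluded. Rps6ka1 (RSK1) averaged 2.90 ± 0.461 FPKM after Cre and 2.66 ± 0.661 FPKM in the vehicle group. Within the family, Rps6ka2 held 42.9% to 55.1% of the summed FPKM in the Cre libraries and 36.5% to 57.5% in the vehicle libraries, and the order of Rps6ka2 and Rps6ka3 turned round between vehicle replicates 1 and 2.

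**Figure D3:**
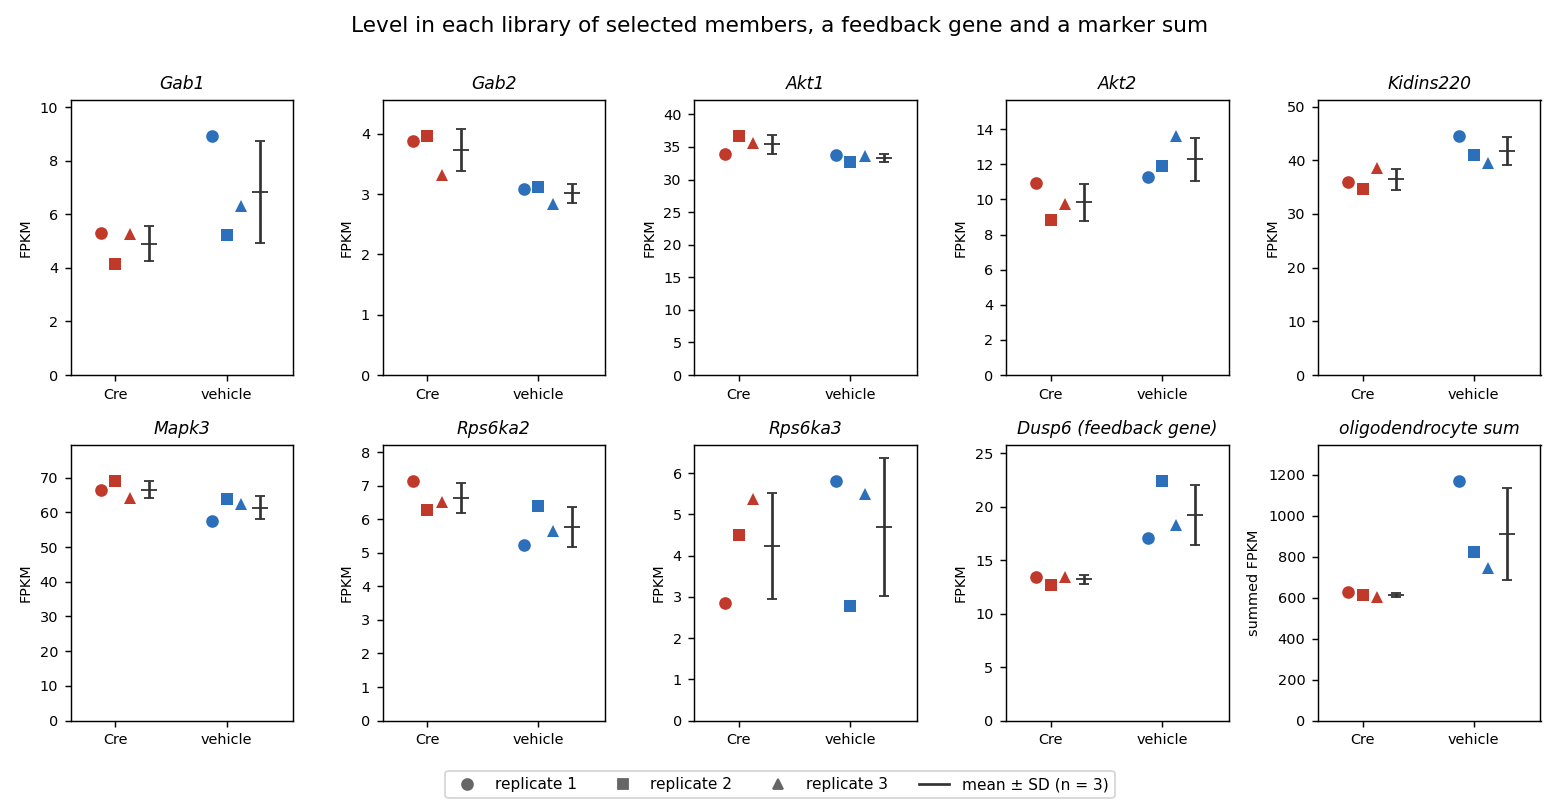
Level in each library, in FPKM, of 8 members and of the feedback gene Dusp6, and the summed FPKM of the 8 oligodendrocyte markers, with Cre on the left, vehicle on the right and the mean ± SD of each group beside its symbols. Rps6ka3 is low in Cre replicate 1 and vehicle replicate 2, while Gab1 and the oligodendrocyte sum are both highest in vehicle replicate 1.

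In the PI3K-AKT-mTOR arm the isoforms of AKT lay apart. AKT kinases are recruited to the membrane by the lipid that phosphoinositide 3-kinase makes, AKT1 being the form best known for growth and survival and AKT2 for insulin responses. Akt2 (ENSMUSG00000004056, chromosome 7 from 27290977 to 27340251, plus strand, GRCm39) was at 10.9, 8.81 and 9.77 FPKM in the Cre libraries, against 11.3, 11.9 and 13.6 FPKM in the vehicle libraries. Every Cre library was below every vehicle library, with Cre replicate 1 close to vehicle replicate 1. Akt2 had a log2 fold change of -0.30 (SE 0.10, 95% interval -0.53 to -0.06), with an unadjusted edgeR p of 0.0195, an adjusted p of 0.792 and an exact permutation p of 0.10. It was -0.43 with the oligodendrocyte covariate, and -0.19 with a term for Y-linked counts.

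Akt1 was at 33.9, 36.7 and 35.6 FPKM in the Cre libraries, against 33.8, 32.7 and 33.6 FPKM in the vehicle libraries. The groups did not overlap, but the lowest Cre library and the highest vehicle library were almost level, and the log2 fold change was 0.11 (SE 0.0611, adjusted p = 0.806 in edgeR; exact permutation p = 0.10). The share of Akt1 in the sum of both genes was 75.6%, 80.7% and 78.5% in the Cre libraries, against 75.0%, 73.2% and 71.1% in the vehicle libraries. The mean share was 78.3% ± 2.52 after Cre and 73.1% ± 1.92 in the vehicle group (SD, n = 3 each), with an exact permutation p of 0.10, or 0.45 adjusted over the 9 families.

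The lipid kinase itself is a catalytic subunit held by a regulatory one. Pik3r2, the gene of the regulatory subunit p85 beta, was at 39.0, 40.0 and 37.5 FPKM in the Cre libraries, against 39.0, 39.1 and 38.9 FPKM in the vehicle libraries. Its log2 fold change of 0.02 had a 95% interval of -0.11 to 0.15. Pik3r1, the gene of p85 alpha, averaged 10.5 ± 1.20 FPKM after Cre and 11.3 ± 0.815 FPKM in the vehicle group, so Pik3r2 made up 76.1% to 81.4% of the pair over all libraries. Pik3ca, the gene of the catalytic subunit p110 alpha, was at 6.10, 4.50 and 6.15 FPKM in the Cre libraries, against 6.48, 6.40 and 6.34 FPKM in the vehicle libraries. Its groups did not overlap, with an edgeR value of -0.18 on the log2 scale (SE 0.120; edgeR adjusted p = 0.833; exact permutation p = 0.10), but the value was -0.05 without Cre replicate 2, the only library clearly below the rest. Pik3cb, the gene of p110 beta, averaged 4.91 ± 0.234 FPKM after Cre and 5.12 ± 0.299 FPKM in the vehicle group.

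The genes of the mTOR end of the arm had small positive values. Mtor, the kinase that promotes protein synthesis, averaged 11.5 ± 0.338 FPKM after Cre and 11.0 ± 0.624 FPKM in the vehicle group, Rptor, the scaffold of its growth-promoting complex, 6.28 ± 0.168 FPKM and 6.09 ± 0.122 FPKM, and Rheb, the GTPase that activates it, 11.3 ± 0.652 FPKM and 11.0 ± 0.292 FPKM. Their log2 fold changes were 0.10, 0.07 and 0.06, and the groups overlapped for each. All 9 genes of this arm had an interval within 1.5-fold.

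**Figure D4:**
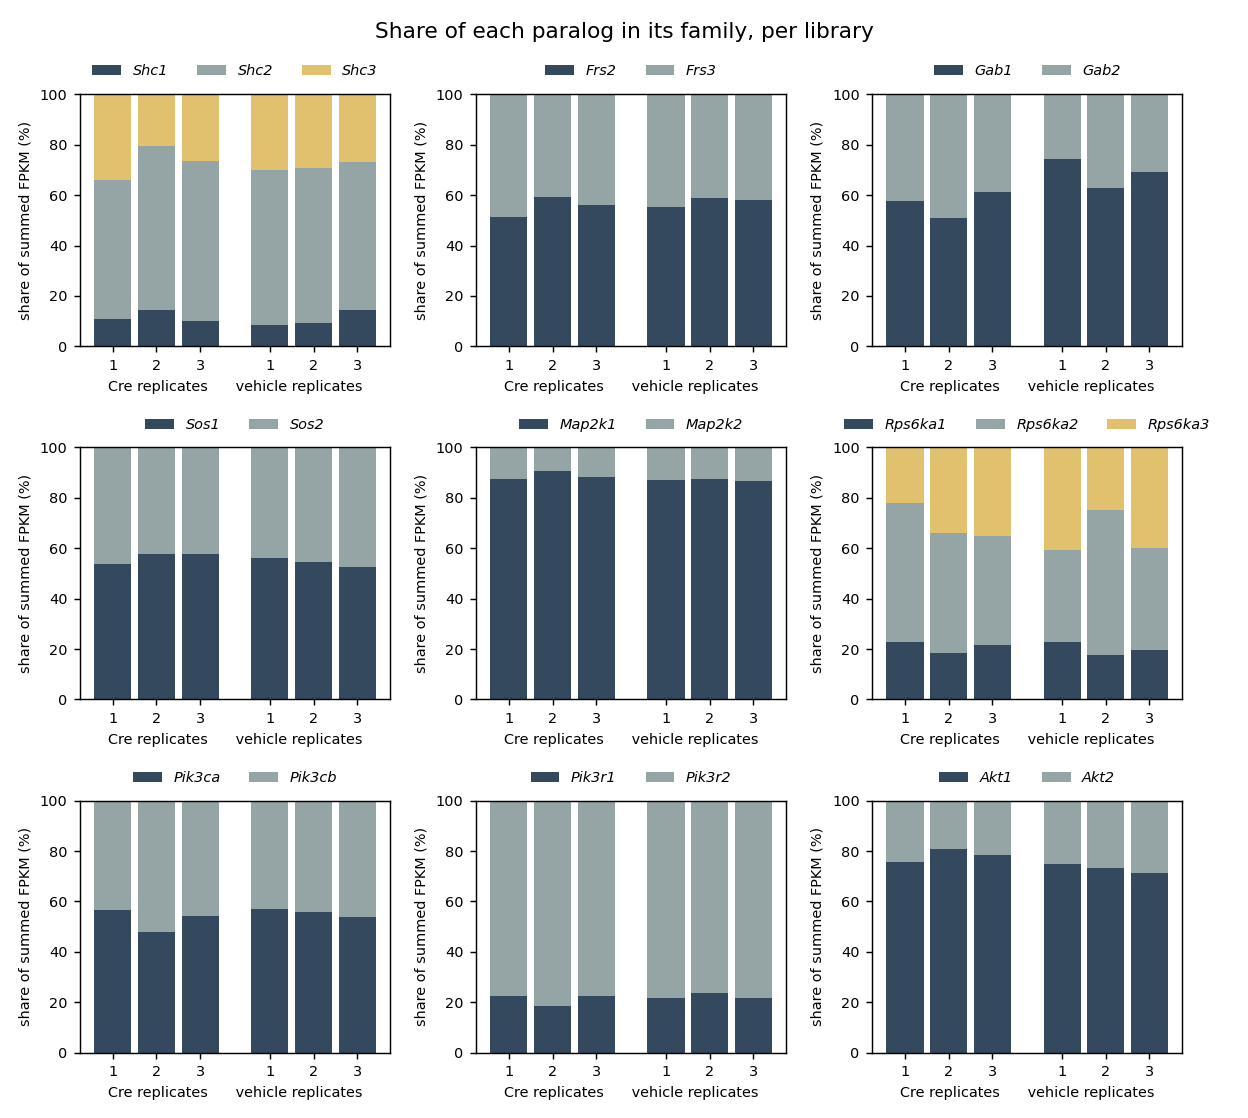
Share of each paralog in the summed FPKM of its family, in percent, for 9 families, with 1 stacked bar per library and the Cre replicates left of the vehicle replicates. The Gab1 and Akt1 shares are the ones whose groups do not overlap, Gab1 lower and Akt1 higher after Cre, each with an adjusted exact p of 0.45.

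In the arm that runs through calcium to the nucleus, all 4 genes had overlapping groups. Plcg1, the phospholipase that binds its own site on TrkB and releases calcium, averaged 11.1 ± 1.13 FPKM after Cre and 11.9 ± 0.487 FPKM in the vehicle group; it shares 27053 bases of its locus with Zhx3 on the opposite strand, which was at 4.51 FPKM after Cre and 4.50 FPKM in the vehicle group. Camk4, the nuclear calmodulin kinase that phosphorylates CREB, averaged 8.82 ± 1.12 FPKM and 9.52 ± 2.36 FPKM in Cre and vehicle libraries, with vehicle replicate 2 the highest at 12.2 FPKM, and its log2 fold change of -0.09 was 0.13 without that library. Creb1, the gene of CREB, averaged 3.33 ± 0.413 FPKM after Cre and 3.71 ± 0.302 FPKM in the vehicle group, a log2 fold change of -0.13 (95% interval -0.39 to 0.13) that was 0.14 with the oligodendrocyte covariate. Crtc1, the coactivator that moves to the nucleus with calcium signals, was at 22.6, 25.2 and 24.1 FPKM in the Cre libraries, against 24.8, 21.6 and 23.8 FPKM in the vehicle libraries, a log2 fold change of 0.06 (95% interval -0.13 to 0.24, adjusted p = 0.911 in edgeR).

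CREB binds the cAMP response element, TGACGTCA, a palindrome that reads the same on both strands, and the promoters of the members were searched for these letters because CREB is where several arms end. RefSeq windows of 300 bases (250 before and 50 after a gene's start, build GRCm38.p6) were at hand for 29 of the 34 members. The element stood in 2 of them, Braf and Ptpn11, against 2.03% of 27025 genes. Its shorter core TGACG, on either strand and counted also inside the full one, stood in 11 of the 29, against 23% of genes. The windows of Braf (chr6:39725414-39725713, minus strand) and Ptpn11 (chr5:121191348-121191647, minus strand) are shown because they alone hold the full element, which is in capitals:
Braf: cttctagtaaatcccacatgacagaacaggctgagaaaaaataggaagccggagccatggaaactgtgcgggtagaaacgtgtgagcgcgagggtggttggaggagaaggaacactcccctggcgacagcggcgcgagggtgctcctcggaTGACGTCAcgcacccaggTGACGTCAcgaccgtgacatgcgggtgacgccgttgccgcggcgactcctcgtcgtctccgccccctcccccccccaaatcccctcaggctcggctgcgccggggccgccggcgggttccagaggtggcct
Ptpn11: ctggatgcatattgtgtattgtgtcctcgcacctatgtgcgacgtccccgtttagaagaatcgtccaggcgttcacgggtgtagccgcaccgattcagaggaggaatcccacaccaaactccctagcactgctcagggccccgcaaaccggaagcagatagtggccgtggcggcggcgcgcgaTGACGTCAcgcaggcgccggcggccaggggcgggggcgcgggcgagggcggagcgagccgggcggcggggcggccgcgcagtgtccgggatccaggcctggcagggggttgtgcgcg
The Braf window held it at bases 152 to 159 and again at 170 to 177, and the Ptpn11 window at 184 to 191. Both genes had a log2 fold change of 0.08 in edgeR, with 95% intervals of -0.08 to 0.23 for Braf and -0.13 to 0.28 for Ptpn11. A match of letters is a description of the sequence and not a measurement of binding.

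The members also varied between libraries of the same group. Cre replicate 2 held the lowest value of the 6 libraries for 15 of the 34 genes and the highest for 9, so it was at an extreme for most of them. Vehicle replicate 2 held the lowest for 8 and the highest for 3, and vehicle replicate 1 the highest for 7 and the lowest for 4. After Rps6ka3, the widest within-group SDs on the log2 FPKM scale were those of Shc1 (0.38), Shc3 (0.32), Rps6ka1 (0.31), Gab1 (0.31) and Camk4 (0.27). The median over all tested genes with values above 0 throughout was 0.22, above the median of 0.11 for the members.

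The other genes of the pathway, 95 in 6 lists, were all tested and gave the surroundings of the members. None of the 95 passed the adjusted threshold in edgeR. At an unadjusted edgeR p under 0.05 there was 1 gene higher (3.03% of all genes) and 6 lower after Cre (3.16%). The groups did not overlap for 3 higher genes (5.47% of all genes) and 13 lower genes (7.5%). The median log2 fold change of the 95 was -0.03. Among the ligand and receptors, Bdnf was at 3.28 ± 0.593 FPKM after Cre and 4.51 ± 0.509 FPKM in the vehicle group (SD, n = 3 each). Its groups did not overlap, with a log2 fold change of -0.43 (95% interval -0.79 to -0.07). The unadjusted edgeR p of Bdnf was 0.0259, the adjusted edgeR p 0.792 and the exact permutation p 0.10. Over all alternatives its value was -0.62 to -0.21. Sorcs2, a sortilin-related receptor, was at 6.44 ± 0.196 FPKM and 5.75 ± 0.647 FPKM, also without overlap. No call was made for either gene. Sorcs2 turned from a log2 fold change of 0.19 to -0.04 with the oligodendrocyte covariate. The gene of TrkB itself, Ntrk2, was at 26.8 ± 0.688 FPKM and 25.6 ± 2.43 FPKM.

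The additional small GTPases and their regulators included several genes with groups that did not overlap. Of 21 other RAS-MAPK genes, 6 lay lower after Cre without overlap (7.5% of all genes) and 1 higher (5.47%), and 0 passed the adjusted threshold. Nras, a RAS GTPase, was at 5.88, 5.53 and 4.89 FPKM in the Cre libraries, against 6.68, 6.85 and 6.41 FPKM in the vehicle libraries, which put its log2 fold change at -0.27 (SE 0.0902; edgeR adjusted p = 0.792; exact permutation p = 0.10). Rap1b, a GTPase that can sustain MAP kinase activity in neurons, was at 20.5, 20.8 and 21.0 FPKM, against 22.7, 24.1 and 23.9 FPKM in the vehicle libraries, at -0.16 on the same scale (SE 0.0590; edgeR adjusted p = 0.792; exact permutation p = 0.10). Both were lower in 3 of 3 Cre libraries than in any vehicle library. Others without overlap included Rap1a (-0.17), Mapk7 (-0.16), Rasgrp1 (-0.17) and, on the higher side, Rras (0.45), all as log2 fold changes and chosen for mention after their values were seen.

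The remaining lists of kinases and adaptors were evenly split. Of 15 other adaptors and phosphatases, 6 had a positive and 9 a negative value, with Dok4, a docking protein, at -0.31 (SE 0.110) and Irs1, an insulin receptor substrate, at -0.18 (SE 0.105). Of 21 other PI3K-AKT-mTOR genes, 12 were positive and 9 negative. The regulatory subunit Pik3r3 was at -0.16 (SE 0.0699) and the mTOR subunit Mlst8 at 0.10 (SE 0.0806). Of 18 other genes of the phospholipase, calcium and CREB arm, 8 were positive and 10 negative. Sik1, a kinase that CREB induces and that restrains its coactivators, was at -0.52 (SE 0.222). Camkk2, the kinase that activates CaMK4, was at -0.11 (SE 0.0587). Sik1 was at -0.25 without vehicle replicate 2, -0.11 with a term for Y-linked counts and -0.89 with the oligodendrocyte covariate.

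The last list holds genes that MAP kinase signalling itself induces, several of which feed back on it. Of 15 such genes 13 lay below 0 and 2 above in log2 fold change (median -0.12), and 0 passed the adjusted threshold in edgeR. The count of negative values was 11 without vehicle replicate 2 and 8 with a term for Y-linked counts, where the median was -0.05. That term left vehicle replicate 1 as the only vehicle library compared with the Cre libraries. Dusp6, the phosphatase that switches off ERK and is among its best known feedback targets, was at 13.5, 12.7 and 13.4 FPKM in the Cre libraries, against 17.1, 22.4 and 18.3 FPKM in the vehicle libraries. The groups lay well apart, with a log2 fold change of -0.52 (SE 0.106, unadjusted edgeR p = 0.00150, adjusted p = 0.792; exact permutation p = 0.10). DESeq2 called Dusp6, with an adjusted p of 0.0122, where it called 0.353% of all genes, and edgeR and limma called it under none of the other 16 alternatives, in which the adjusted p reached 0.995. The value was -0.36 to -0.65 over all alternatives, at -0.40 without vehicle replicate 2, -0.36 with a term for Y-linked counts and -0.65 with the oligodendrocyte covariate. Egr1, a transcription factor of the immediate early response, was at 31.6, 19.8 and 18.9 FPKM in the Cre libraries, against 26.7, 48.3 and 38.8 FPKM in the vehicle libraries, which gave -0.67 on the log2 scale (SE 0.257; edgeR adjusted p = 0.792; exact permutation p = 0.20). Its groups overlapped through Cre replicate 1 and vehicle replicate 1, and the value was -0.17 with a term for Y-linked counts. The sprouty and spred genes, which restrain RAS signalling, had values from -0.19 (Spry2) to -0.02 (Spred3). The transcription factor genes Etv1 and Etv4 gave the positive values, 0.11 and 0.02.

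**Figure D5:**
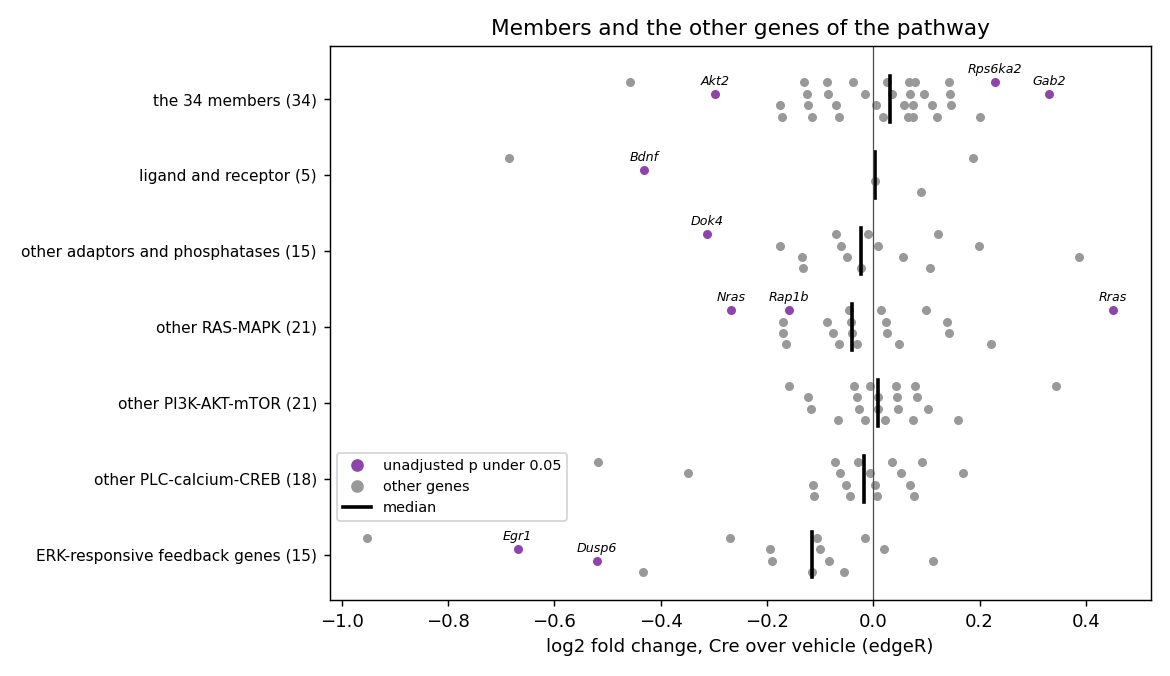
The log2 fold change, Cre over vehicle, of each of the 34 members and of the 95 other genes of the pathway by list, with a black bar at each list's median and purple points for genes at an unadjusted edgeR p under 0.05. The members centre on a median of 0.03 and the genes induced by MAP kinase signalling on -0.12, with Dusp6 at -0.52 and Egr1 at -0.67.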

How the data were processed

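Per the file headers, the authors deposited estimated counts and FPKM per gene for all 6 libraries in 1 table. The build GRCm39 and the tools StringTie 2.1.6, HISAT2 2.2.1, cutadapt 1.9, edgeR and DESeq2 are named in the submitters' processing notes; neither annotation release nor strand setting is given in the sources used here. Per the labels' protocols, libraries were poly(A) selected and strand-marked. The deposited counts are whole numbers that pile up at multiples of 4, so they were also tested divided by 4.

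The counts were tested with edgeR 4.0.16 in R 4.3.3 (filterByExpr, 20946 genes; TMM factors 0.9895 to 1.017; quasi-likelihood F test; Benjamini-Hochberg over all genes; threshold 0.05), with a common biological coefficient of variation of 28.6%. Each standard error is the log2 fold change over the root of F. For single genes, log2(FPKM + 1) was permuted exactly and two-sided, and for paralog families the share, over 20 assignments (SciPy 1.17.1). FPKM means and edgeR fold changes are scaled differently, so their ratios differ slightly. The fit was tested on simulated data.

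Alternatives were DESeq2 1.42.0, RLE factors, a replicate block, no filter, each library left out, limma 3.58.1 on log2(FPKM + 1) or log2(FPKM + 0.1) above a mean level of 0.5 FPKM or unfiltered, a term for Y-linked counts and an oligodendrocyte covariate. The Y-linked term left vehicle replicate 1 as the only vehicle library compared with the Cre libraries. The oligodendrocyte covariate did not overlap between the groups, so its effect can hardly be told apart from that of the group. Leaving out both Cre replicate 1 and vehicle replicate 3 was added after seeing the data. Members and lists were chosen with earlier results of these data known. Full values are given for the 8 members with the smallest p and for others whose groups do not overlap. They are also given for the most abundant member of each arm and the least abundant of all. Of each other list the 2 genes with the smallest p are named, with values in every library for Nras, Rap1b, Dusp6 and Egr1 only. Libraries were matched by name; no pair matched within sampling noise (lowest chi-square per gene 24.8). Values of some genes of the other lists are not reported here. Where libraries are not separate animals, p-values measure only the spread between libraries.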

Additional observations from a re-analysis of the deposited data

How the results depend on the processing

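No member passed an adjusted p under 0.05 under any of the 17 alternatives. Over all genes edgeR called 0, DESeq2 74, counts divided by 4 gave 1, a term for Y-linked counts 1, and leaving out a library 0 to 6. Members at an unadjusted p under 0.05 numbered 3; DESeq2 gave 5 (7.18% of all genes), the oligodendrocyte covariate 1 (5.03%), leaving out both Cre replicate 1 and vehicle replicate 3 gave 1 (4.98%), and leaving out 1 library 1 to 5 (4.26% to 8.64%). Members without overlap numbered 7 (13% of all genes), or 13 without both libraries (37.2%) and 7 to 14 without 1 (21.4% to 27.5%). The members' median log2 fold change was 0.01 to 0.11 over all alternatives. The RAS-MAPK median moved to -0.04 with the Y-linked term, and the median of the calcium and CREB arm to 0.09 with the oligodendrocyte covariate; the cause was not tested. The Y-linked term compared the Cre libraries with vehicle replicate 1 alone, and the covariate did not overlap between the groups. The log2 fold change kept its sign in all alternatives for 17 members and turned in at least 1 for 17.

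Same-numbered libraries did not deviate together (correlations -0.01, -0.05 and -0.10), so the numbers were not taken as pairs; with a replicate block edgeR called 0 genes, and 3 members were at an unadjusted p under 0.05. Intervals cover the spread between 3 libraries a group; those of Rps6ka3, Shc1, Rps6ka1 and Gab1 did not exclude a 1.5-fold change in at least 1 direction. The count of read pairs behind each value is not known.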
